A study of Homo sapiens with 3 samples.

Results

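The genes described here encode the proteins that make microRNAs and the Argonaute proteins that carry them: DROSHA, DGCR8, XPO5, DICER1, TARBP2, AGO1, AGO2, AGO3 and AGO4. They were chosen by name, and all 9 were found once in each table, among 39320 gene rows on references whose names hold no "_". The 3 libraries hold polyadenylated RNA, and their labels name them replicates 1 to 3 of wild-type HepG2, a human cell line derived from a liver tumour. No other genotype, treatment or time point was included, so genes were compared with each other within each library. The labels do not say whether the replicates came from separate cultures, so p-values apply to these libraries only. The spread between the libraries may be technical.

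MicroRNAs are short RNAs that lower the stability and translation of the mRNAs they pair with. In the nucleus, the RNase III enzyme DROSHA and its RNA-binding partner DGCR8, together called the Microprocessor, cut a hairpin out of a longer primary transcript. Exportin-5, the product of XPO5, carries the hairpin to the cytoplasm. There DICER1, with its double-stranded RNA-binding partner TARBP2, cuts it to a duplex, and an Argonaute protein keeps a single strand of it as the guide. The methyltransferase METTL3, on which the study centred, is known to methylate primary microRNA transcripts and to help DGCR8 recognise them.

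All 9 genes were expressed in the libraries labelled HepG2, but at unequal levels. DROSHA was highest with 77.1 ± 0.907 TPM (SD, n = 3), and AGO4 was lowest with 3.48 ± 0.192 TPM. TPM, the share of a gene among all transcripts, is scaled for gene length and sums to the same total in every library. At least 1 TPM was reached in every library by 9 of the 9 genes, against 33.8% of all gene rows. At least 10 TPM was reached in every library by 6 of them, against 20.7% of all gene rows, and the 3 that fell short were AGO1, AGO3 and AGO4. The median of the 9 means was 15.9 TPM, close to the 15.4 TPM of the 13753 genes whose mean reached 1 TPM. In bulk RNA, fewer cells with a transcript and less of it per cell cannot be told apart.

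Markers of the labelled cell type were examined before the genes were compared. A list of 15 secreted hepatocyte proteins had 13 genes that stayed under 1 TPM in each library, and 10 of these, including ALB, APOA1 and APOB, were listed at 0 throughout. The most abundant of the list was VTN, which encodes vitronectin, with 23.3 ± 0.560 TPM (SD, n = 3). The list summed to 35.3, 33.6 and 34.5 TPM in replicates 1, 2 and 3. Of 5 mesenchymal markers, 2 reached 1 TPM in every library, led by VIM with 694 ± 48.1 TPM, and SPARC was listed at 0. The mesenchymal list summed to 756, 679.8 and 669 TPM. No gene of 5 blood markers did so, and PTPRC, CD3E and HBD were listed at 0. The blood list summed to 1.43, 1.48 and 1.21 TPM, and CD14 led it with a mean of 0.694 TPM. Most defining markers of the labelled cell type were thus listed at 0 or very low, and whether the cells were HepG2 was not tested. Every level given here therefore stands for libraries labelled HepG2.

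The rows of DGCR8 and DICER1 hold microRNA hairpins of their own. Their mature sequences are printed because these are the microRNAs that lie inside the genes described here, and because their rows overlap an exon or intron of the host gene. RefSeq (GRCh38.p14) places 5 mature microRNAs from 3 hairpins within the rows of the 9 genes. They are written 5′ to 3′ with the seed, bases 2 to 8, in capitals. MIR3618 lies in the untranslated part of DGCR8 exon 2 and MIR1306 in the coding part of the same exon, both on the plus strand. MIR3173 lies on the minus strand in intron 1 of DICER1, by the MANE Select transcripts of GENCODE v44.
hsa-miR-3618, chr22:20085797-20085818: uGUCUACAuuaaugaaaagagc
hsa-miR-1306-5p, chr22:20086072-20086093: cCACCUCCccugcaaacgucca
hsa-miR-1306-3p, chr22:20086112-20086129: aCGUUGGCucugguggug
hsa-miR-3173-5p, chr14:95137961-95137982: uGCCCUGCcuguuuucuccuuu
hsa-miR-3173-3p, chr14:95137923-95137944: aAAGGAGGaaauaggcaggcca

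The 5 seeds were all different, so these microRNAs form no group by seed. The Microprocessor is known to cut the DGCR8 mRNA at such hairpins, a feedback on its own level. The coverage of the DGCR8 row, the mean depth per base, was 159, 141 and 118 in replicates 1, 2 and 3. The MIR1306 row had a coverage of 0.000643, 0.000394 and 0.000772, although its 85 bp lie within an exon of DGCR8. The coverage of MIR3618 was 0.000131, 0.000131 and 0.000143 over its 88 bp. The hairpin rows thus had almost no coverage beside the mean of the DGCR8 row, and how reads of exon 2 itself were divided was not tested. MIR3173 was listed at 0.270, 0.276 and 0 TPM, and it overlaps no exon of the DICER1 MANE Select transcript. Libraries of polyadenylated RNA do not measure mature microRNAs, so these rows say nothing of their levels.

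The Microprocessor genes differed in level. The DROSHA row spans chr5:31400494-31532175 on the minus strand, and its MANE Select transcript has 36 exons. DROSHA had 77.4, 77.8 and 76.1 TPM in replicates 1, 2 and 3. DGCR8, at chr22:20080232-20111877 on the plus strand with 14 exons, had 26.0, 23.5 and 23.0 TPM, a mean of 24.1 ± 1.60 TPM (SD, n = 3). DROSHA was above DGCR8 in every library and the values did not overlap. The ratio of TPM was 2.98, 3.32 and 3.31, or 3.20 ± 0.192 (SD, n = 3), and the difference on the log2(TPM + 1) scale was 1.64 ± 0.08. DROSHA varied little, with a coefficient of variation of 1.18%, against 6.63% for DGCR8 and a median of 5.17% for the 6928 genes with a mean of 10 to 100 TPM. DROSHA exceeded 85.6% of the genes whose mean reached 1 TPM, and DGCR8 exceeded 61.6%, or 95.0% and 86.6% of all gene rows. By coverage in place of TPM the log2 difference was 1.04. The last 12 bp of the DGCR8 row also lie in the row of TRMT2A, a tRNA methyltransferase gene on the minus strand, which had 37.0 ± 0.470 TPM (SD, n = 3).

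XPO5 was expressed at the level of DGCR8. It had 26.6, 23.7 and 23.2 TPM in replicates 1, 2 and 3, or 24.5 ± 1.82 TPM (SD, n = 3). The ranges of XPO5 and DGCR8 overlapped, and the difference of 0.02 ± 0.01 on the log2(TPM + 1) scale was nevertheless positive in 3 of 3 libraries. Both genes were highest in replicate 1 and lowest in replicate 3. The XPO5 row, at chr6:43522330-43576075 on the minus strand, overlaps the row of POLR1C, a gene for an RNA polymerase subunit on the plus strand, over 40075 bp. POLR1C had 44.7 ± 3.43 TPM (SD, n = 3). The deposited POLR1C row spans 79.6% of the exonic bases of the XPO5 transcript. Exons of the XPO5 MANE Select transcript share 348 bp with POLR1C exons in GENCODE v44, which is 6.54% of its 5323 nt. Other XPO5 transcripts were not compared. The strand setting is not given in the sources used here, and without strand the reads of XPO5 and POLR1C cannot be told apart where their exons meet.

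The cytoplasmic processing genes differed in the other direction from the Microprocessor, with the RNA-binding partner above the enzyme. DICER1 had 14.2, 12.6 and 12.8 TPM in replicates 1, 2 and 3, or 13.2 ± 0.869 TPM (SD, n = 3). TARBP2 had 45.0, 47.6 and 43.5 TPM, or 45.3 ± 2.05 TPM. The TPM of DICER1 was 0.316, 0.265 and 0.295 of that of TARBP2, and the values did not overlap. The difference of DICER1 to TARBP2 on the log2(TPM + 1) scale was -1.71 ± 0.12 (SD, n = 3). DICER1 was also below the other RNase III enzyme, DROSHA, by -2.46 ± 0.09 on the same scale, at 0.171 ± 0.0111 of its TPM. XPO5 was above DICER1 by 0.84 ± 0.03, a TPM ratio of 1.85 ± 0.0398 (SD, n = 3), and by coverage this log2 difference was 1.58.

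These neighbouring steps rest on genes of unlike structure. DICER1 lies at chr14:95086228-95158263 on the minus strand, and its MANE Select transcript has 27 exons and 10384 nt, of which 4273 nt are the 3′ untranslated region. TARBP2, at chr12:53500921-53506431 on the plus strand, has 9 exons and 1510 nt. The 5′ end of the DICER1 row overlaps that of DICER1-AS1, an antisense noncoding gene, over 576 bp. DICER1-AS1 had 0.707 ± 0.0795 TPM (SD, n = 3), far below DICER1. Exons of the DICER1 MANE Select transcript overlap no DICER1-AS1 exon in GENCODE v44, and other DICER1 transcripts were not compared. The start of the TARBP2 row overlaps MAP3K12 over 285 bp, and MAP3K12 had 2.25, 2.21 and 2.06 TPM. No exon of the TARBP2 MANE Select transcript lies in that stretch, and other TARBP2 transcripts were not compared.

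Among the Argonaute genes, AGO2 was the highest. AGO2 encodes the Argonaute known for cutting targets that pair fully with the guide. It had 17.2, 15.9 and 14.5 TPM in replicates 1, 2 and 3, or 15.9 ± 1.38 TPM (SD, n = 3). AGO1 had 5.04, 4.50 and 5.34 TPM, or 4.96 ± 0.428 TPM. AGO3 had 4.61, 4.50 and 4.52 TPM, or 4.54 ± 0.0611 TPM. AGO4 had 3.44, 3.30 and 3.68 TPM, a range that did not overlap that of any other Argonaute gene. The lowest AGO2 value lay above every value of the other 3 genes. AGO2 was highest in replicate 1 and lowest in replicate 3, while AGO1 and AGO4 were highest in replicate 3. AGO2 exceeded 50.8% of the genes whose mean reached 1 TPM, AGO1 24.5%, AGO3 22.8% and AGO4 18.4%. By coverage these shares were 37.6%, 29.5%, 9.14% and 13.3%. Among all gene rows, many of them at 0, they were 82.8%, 73.6%, 73.0% and 71.5% by TPM.

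The difference of AGO2 on the log2(TPM + 1) scale was 1.50 ± 0.19 to AGO1, 1.60 ± 0.11 to AGO3 and 1.91 ± 0.17 to AGO4 (SD, n = 3). As ratios of TPM these were 3.22 ± 0.450, 3.49 ± 0.271 and 4.59 ± 0.575. By coverage the log2 difference to AGO1 was 0.56. The 4 genes summed to 30.3, 28.2 and 28.0 TPM in replicates 1, 2 and 3. AGO2 made up 56.8%, 56.5% and 51.6% of this sum, a mean of 55.0% ± 2.88 (SD, n = 3). AGO1 made up 17.2% ± 1.65, AGO3 15.8% ± 0.484 and AGO4 12.1% ± 0.948. By coverage in place of TPM, the share of AGO2 was 46.4% ± 1.54 that of AGO1 31.0% ± 0.909, that of AGO3 9.98% ± 0.239 and that of AGO4 12.6% ± 0.757, so AGO3 and AGO4 changed places. AGO2 had the largest share on both scales.

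**Figure D1:**
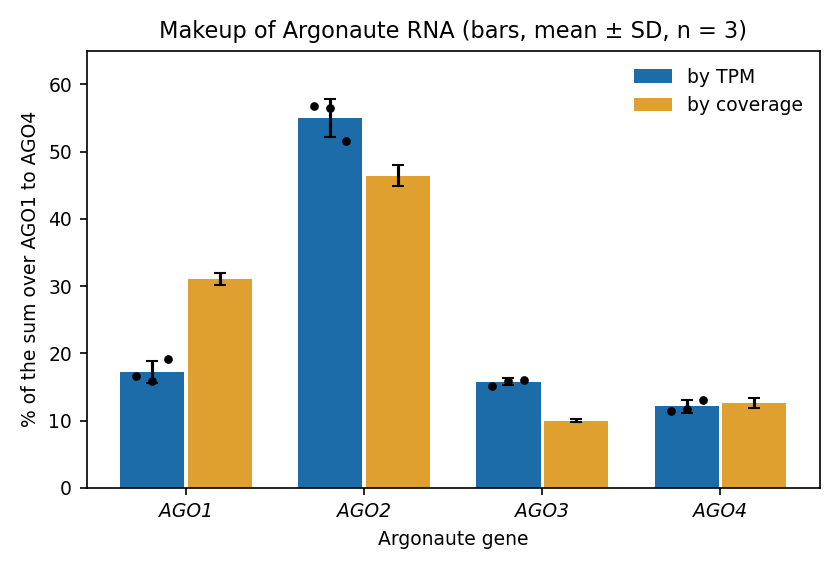
Share of each Argonaute gene in the sum over AGO1 to AGO4, in percent, by TPM (blue) and by coverage (orange), with bars for means, error bars for SD over 3 libraries and black points for single libraries by TPM. AGO2 takes 55.0% by TPM and 46.4% by coverage, AGO1 17.2% and 31.0%, AGO3 15.8% and 9.98%, and AGO4 12.1% and 12.6%.

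AGO4, AGO1 and AGO3 lie side by side in this order on the plus strand of chromosome 1, within 264877 bp, and AGO2 lies on the minus strand of chromosome 8. The AGO4 row (chr1:35807624-35857890) ends 11917 bp before the AGO1 row (chr1:35869808-35930532). The last 4850 bp of the AGO1 row fall within the AGO3 row (chr1:35925683-36072500), on the same strand. That stretch holds 35.4% of the AGO1 MANE Select transcript. GENCODE v44 begins AGO3 at 35930718, beyond the end of AGO1, and lists no exon that the genes share, so the deposited AGO3 row starts 5035 bp further upstream. How reads in this stretch were divided between AGO1 and AGO3 was not tested. The AGO2 row holds that of LOC107986982, listed at 0, 0.330 and 0.178 TPM, and the AGO3 row holds that of LOC105378647, listed at 0 in all 3 libraries. No row overlaps those of DROSHA and AGO4.

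Most of each Argonaute transcript is untranslated. The 3′ untranslated region makes up 79.7% of the 13712 nt of AGO1, 81.5% of the 14595 nt of AGO2, 85.2% of the 19660 nt of AGO3 and 59.0% of the 7272 nt of AGO4. The coding regions are nearly equal in length at 2571, 2577, 2580 and 2583 nt. Few stretches are shared between the paralogs. Of all 30 nt windows, 3 of 13683 in AGO1, 24 of 19631 in AGO3 and 14 of 7243 in AGO4 also occur in another of the 4 MANE Select transcripts, and 0 of 14566 in AGO2. No 75 nt window is shared.

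The 7 ratios described above, for the Microprocessor, DICER1, TARBP2, XPO5 and AGO2, each had the same sign in 3 of 3 libraries. An exact permutation test that flips signs (two-sided) returned p = 0.25 per ratio, and Benjamini-Hochberg adjustment over the 7 left it at 0.25. This is the smallest p that this test allows with 3 libraries, so no ratio could pass a threshold of 0.05 by it. By mean TPM the order of the genes was DROSHA, TARBP2, XPO5, DGCR8, AGO2, DICER1, AGO1, AGO3 and AGO4. The ranges of neighbours overlapped for XPO5 with DGCR8 and for AGO1 with AGO3, and for no other neighbouring pair by TPM. AGO2 and DICER1, which came closest among the pairs without overlap, differed by 0.25 ± 0.08 on the log2(TPM + 1) scale (SD, n = 3).

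**Figure D2:**
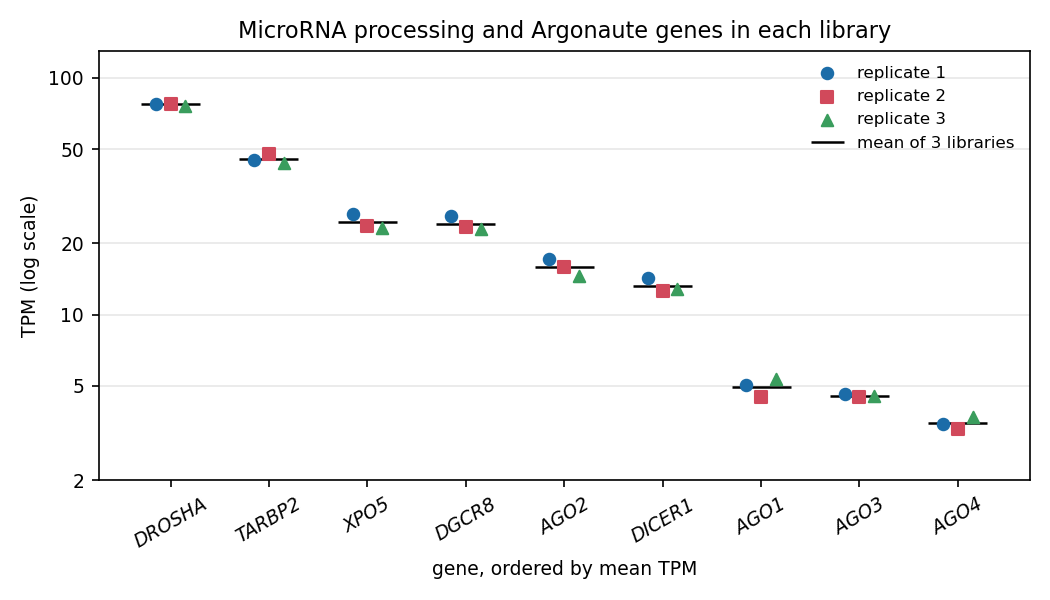
TPM of each gene on a log axis, ordered by mean, with points for single libraries (circles, squares and triangles for replicates 1, 2 and 3) and lines for means of 3 libraries. DROSHA sits near 77.1 TPM and AGO4 near 3.48 TPM, and the points of XPO5 and DGCR8 and those of AGO1 and AGO3 overlap.

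The order changed in part when coverage, which is not scaled for library size, was read in place of TPM. By coverage DICER1, with 52.6, 46.1 and 41.2 in replicates 1, 2 and 3, was above AGO2, with 33.0, 30.5 and 24.4. AGO4, with 8.60, 7.75 and 7.38, was above AGO3, with 6.87, 6.59 and 5.41. Each of these inversions held in 3 of 3 libraries. The ranges of TARBP2 and XPO5, apart by TPM, overlapped by coverage, where the log2 difference was 0.23 ± 0.12 against 0.86 ± 0.12 (SD, n = 3). XPO5 and DGCR8 overlapped on both scales, and AGO1 was below AGO2 without overlap on both. AGO1 and AGO3, which overlapped by TPM, were apart by coverage, at 17.5 to 21.5 against 5.41 to 6.87. Coverage per FPKM, where FPKM is scaled for length and library size, was at 96.9% of the highest ratio in the library for XPO5 in all 3 libraries. It was 30.6%, 31.1% and 30.7% for AGO2, 23.7%, 23.9% and 21.8% for AGO3, and 39.8%, 38.2% and 36.5% for AGO4. DICER1 lay between these at 59.1%, 59.7% and 58.4%. The Argonaute genes other than AGO1 thus had the least coverage for their FPKM among the 9 genes.

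**Figure D3:**
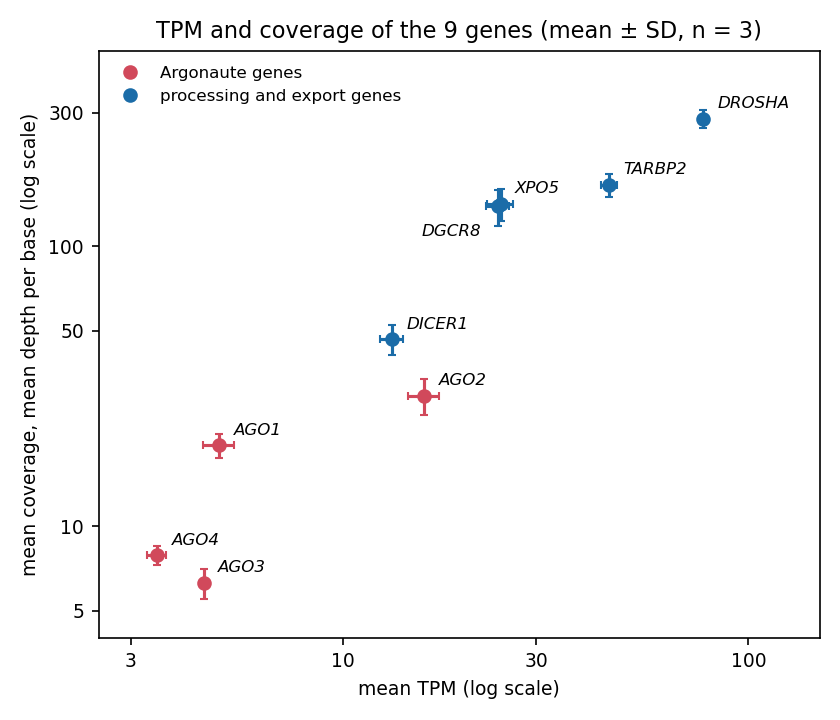
Mean coverage against mean TPM for the 9 genes, both on log axes, with SD over 3 libraries as error bars (red, Argonaute genes; blue, processing and export genes). AGO2 lies to the right of and below DICER1, and AGO3 lies to the right of and below AGO4.

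Variation between the libraries was small. The range of log2(TPM + 1) over the 3 libraries was 0.03 for DROSHA and AGO3 and at most 0.24, for AGO2. The range exceeded 1 in 0 of the 6 members whose mean reached 10 TPM, against 0.273% of the 8419 genes at that level, and in 0 of all 9, against 1.26% of the 13753 genes whose mean reached 1 TPM. The median range of the 9 genes was 0.16, and that of these 13753 genes was 0.15. The highest value of DGCR8, XPO5, DICER1, AGO2 and AGO3 was in replicate 1, that of DROSHA and TARBP2 in replicate 2, and that of AGO1 and AGO4 in replicate 3. These are 55.6%, 22.2% and 22.2% of the 9 genes, against 58.1%, 23.4% and 18.5% of the 13753 genes. With median-of-ratios scaling, 4, 2 and 3 of the 9 genes were highest in replicates 1, 2 and 3, against 38.1%, 27.9% and 34.0% of the 13753 genes, and AGO3 was then highest in replicate 3.

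Transcript length moved with the library in which a gene was highest. The genes were split by MANE Select transcript length into 3 classes of 3756 genes each. In the class of longest transcripts 79.0%, 12.8% and 8.20% were highest in replicates 1, 2 and 3, and in the shortest 42.8% were highest in replicate 1. With median-of-ratios scaling the shares for replicate 1 were 60.1% and 21.6%. The median deviation of replicate 1 from the gene's mean was 0.08 on the log2(TPM + 1) scale in the longest class and 0.01 in the shortest. Of the genes described here 8 fall in the longest class, of 4471 nt and more, and TARBP2 falls in the shortest. The part of this pattern in the values of DGCR8, XPO5, DICER1 and AGO2 was not tested.

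**Figure D4:**
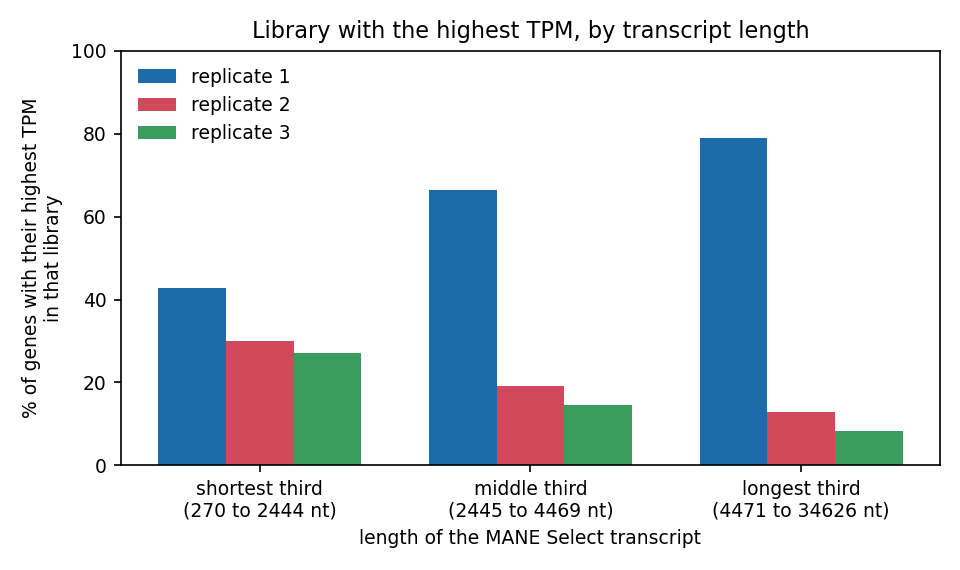
Percent of genes with their highest TPM in replicate 1 (blue), 2 (red) or 3 (green), for 3 classes of 3756 genes each by length of the MANE Select transcript, among genes whose mean reached 1 TPM. The share for replicate 1 is 42.8% in the shortest class, 66.3% in the middle class and 79.0% in the longest class.

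The wider pathway was examined with a list of 52 genes that act beside these 9. At least 1 TPM was reached in every library by 46 of them and at least 10 TPM by 38, again beside 33.8% and 20.7% of all gene rows. Their median mean was 36.3 TPM. Among 9 accessory factors of the Microprocessor, all reached 10 TPM in every library, from 48.8 ± 1.45 TPM for NCBP2, a cap-binding subunit, to 1534 ± 38.0 TPM for HNRNPA1, an RNA-binding protein known to bind some primary microRNAs (SD, n = 3). RAN, the GTPase that Exportin-5 needs to bind its cargo, had 601 ± 7.08 TPM. PRKRA, another RNA-binding partner of DICER1, had 25.8 ± 1.22 TPM, below TARBP2 and above DICER1 in every library.

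The loading chaperones had a median of 1412 TPM and the GW182 group with its partners 35.0 TPM, against 4.75 TPM for the Argonaute genes. All 5 loading chaperones exceeded 10 TPM in every library, from 139.9 ± 2.52 TPM for the cochaperone FKBP4 to 2112 ± 86.0 TPM for HSP90AA1, an HSP90 gene (SD, n = 3). The GW182 proteins, encoded by TNRC6A, TNRC6B and TNRC6C, bind Argonaute and recruit deadenylases. TNRC6A, named here after its values were seen, had 29.5 ± 1.57 TPM, TNRC6B had 3.60 ± 0.562 TPM and TNRC6C had 1.70 ± 0.0517 TPM. The 4 Argonaute genes summed to 0.826, 0.806 and 0.859 of the TNRC6 sum in replicates 1, 2 and 3 by TPM. By coverage the direction turned, with 1.25, 1.25 and 1.23 of the TNRC6 sum, so which sum was larger depended on the scale. PABPC1, the poly(A)-binding protein that GW182 proteins contact, was the highest of that group with 823 ± 47.1 TPM.

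The genes for deadenylation and decapping had a median of 17.9 TPM and those for tailing and turnover 16.8 TPM. All 13 genes for deadenylation and decapping exceeded 1 TPM in every library, from 4.09 ± 0.141 TPM for PAN2, a deadenylase subunit, to 71.6 ± 6.15 TPM for CNOT1, the scaffold of the CCR4-NOT complex (SD, n = 3). By coverage the lowest of them was not PAN2, with a mean of 23.3, but CNOT6, a deadenylase named here after its values were seen, with 10.5. The 7 genes for tailing and turnover ranged from 9.18 ± 0.185 TPM for DIS3L2, an exonuclease of uridylated precursors, to 49.4 ± 3.36 TPM for XRN2, a nuclear exonuclease. By coverage DIS3L2 and XRN2 both had a mean of 37.5, so their difference was seen in TPM and not in coverage. By mean coverage the lowest was TUT4, a terminal uridylyltransferase, with 24.4, 21.8 and 19.7 in replicates 1, 2 and 3. The highest was ZSWIM8, a ubiquitin ligase subunit, with 85.5, 85.5 and 73.5, and both were named here after their values were seen. LIN28A and LIN28B, which bind let-7 precursors and block their processing, were listed at 0 in all 3 libraries. Of the PIWI genes, the germline relatives of the Argonautes, PIWIL1 was listed at 0 in all 3 libraries. PIWIL2 had 0.385 ± 0.0602 TPM and PIWIL3 had 0.315 ± 0.156 TPM. PIWIL4 had 1.22, 1.01 and 0.971 TPM, below AGO4 in each library, by 1.12 ± 0.13 on the log2(TPM + 1) scale (SD, n = 3). By coverage PIWIL4, with 7.66, 6.20 and 5.34, was also below AGO4, by 0.28, but its range overlapped those of AGO3 and AGO4.

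**Figure D5:**
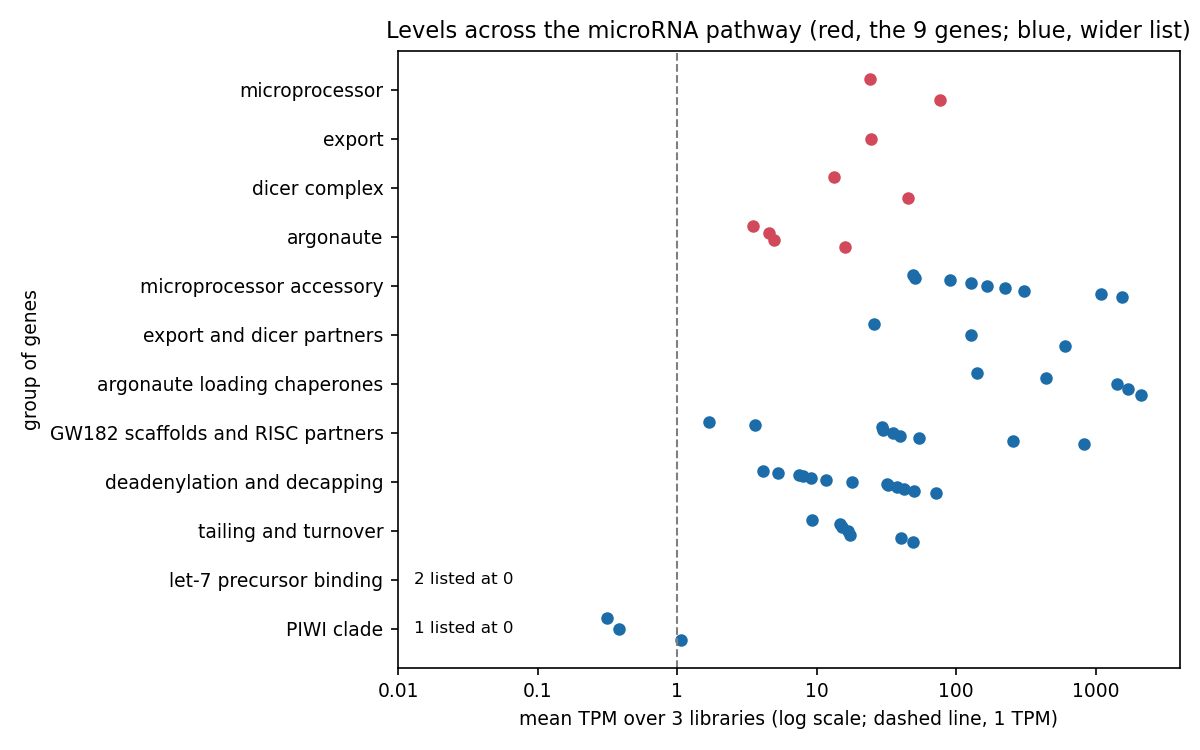
Mean TPM over 3 libraries on a log axis for the 9 genes (red) and 52 genes of the wider pathway (blue), by group. The dashed line marks 1 TPM, LIN28A, LIN28B and PIWIL1, listed at 0, are given as text, and HSP90AA1 is highest with 2112 TPM.

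For each of the 9 genes, the gene of the wider list with the most similar level was taken as the gene with the smallest largest difference of log2(TPM + 1) over the 3 libraries. This was CNOT1 for DROSHA, with a difference of at most 0.20, and PRKRA for both DGCR8 and XPO5, with at most 0.16 and 0.15. It was XRN1, the cytoplasmic exonuclease, for DICER1 with at most 0.21, and CNOT3 for TARBP2 with at most 0.16. For the Argonaute genes it was CNOT6L for AGO1, TUT7, a terminal uridylyltransferase, for AGO2, PAN2 for AGO3 and TNRC6B for AGO4, with at most 0.21, 0.11, 0.15 and 0.23. This likeness is one of TPM, and by coverage PAN2 had a mean of 23.3 against 6.29 for AGO3. METTL3 itself had 32.0 ± 1.34 TPM (SD, n = 3), below DROSHA and TARBP2 and above DGCR8 in every library by TPM. By coverage METTL3, with 176, 190.1 and 161, was above TARBP2, with 174, 177 and 148. The reference genes ACTB and GAPDH had 5054 ± 192 and 7264 ± 82.8 TPM.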

How the data were processed

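RNA-seq was analysed in 3 libraries labelled wild-type HepG2. Per the paper's methods and the submitters' processing notes, 150 bp paired-end reads were filtered with FastQC 0.11.8 and Trim Galore 0.6.2 and mapped to GRCh38 with STAR 2.6.1a, and StringTie is listed with no version. The annotation and strand setting are not given in the sources used here. The authors deposited coverage (mean depth, not scaled for library size), FPKM and TPM values per gene. The tables used here give no read counts, so the number of reads per library is not stated and counting error was not computed. Relative depth can be read from coverage per FPKM, since only FPKM is scaled for library size. Its maximum over genes was 13.3, 12.8 and 11.5 in replicates 1, 2 and 3. Relative to replicate 3, the lowest, these were 1.16, 1.12 and 1.00. Coverage summed over genes fell in the same order. Among rows above 0 TPM in both libraries of a pair, at most 7 held identical TPM, so no library was a copy of another.

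The 3 tables were matched on gene name, strand and position, giving 43389 rows, of which 39320 lay on references whose names hold no "_". TPM was used as deposited, with a pseudocount of 1 on the log2 scale. Ratios between genes were compared within libraries by an exact permutation test that flips signs (two-sided), with Benjamini-Hochberg adjustment over 7 ratios. The range calculation was tested on simulated data. Transcripts were taken from GENCODE v44, whose gene ends differ from the deposited rows by up to 6773 bp, and microRNA sequences from RefSeq (GRCh38.p14).

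The members and lists were chosen with earlier results of these data known. Named were the 9 members, rows overlapping them, METTL3, ACTB and GAPDH, and, of each wider list, the highest and lowest gene, any gene below 1 TPM in every library and the gene nearest each member in level. TNRC6A, CNOT6, TUT4, ZSWIM8, the TNRC6 sum, the markers named singly and the transcript length pattern were chosen after their values were seen. The alternatives were a pseudocount of 0.1, FPKM or coverage in place of TPM, no limit on low TPM, median-of-ratios scaling, TPM without mitochondrially encoded genes and leaving out each replicate. Calculations used Python 3.11.15, numpy 2.4.6, pandas 2.3.3 and matplotlib 3.10.9.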

Additional observations from a re-analysis of the deposited data

How the results depend on the processing

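No paired analysis was possible because only 1 condition was sequenced, so conditions could not be paired, and the 7 ratios pair genes within a library. The other scaling of the length pattern was chosen after seeing the data. The 7 ratios kept their sign with a pseudocount of 0.1, with FPKM and with coverage, and p is at least 0.25 under every setting, so this says nothing of significance. By coverage the log2 difference of AGO2 to AGO1 was 0.56 against 1.50, that of XPO5 to DICER1 was 1.58 against 0.84, and that of DROSHA to DGCR8 was 1.04 against 1.64. The share of AGO2 in the Argonaute sum was 46.4% by coverage against 55.0%. Directions turned by coverage, in comparisons added after seeing the data, for the Argonaute sum over the TNRC6 sum, at 1.24 against 0.830, and for the log2 differences of TARBP2 to METTL3, at -0.08 against 0.49, AGO2 to DICER1, at -0.66 against 0.25, AGO3 to AGO4, at -0.29 against 0.31, and CNOT6 to PAN2, at -1.09 against 1.89. The log2 difference of XRN2 to DIS3L2, added likewise, was 2.30 by TPM and had no clear direction by coverage, at -0.01 ± 0.13 (SD, n = 3). The cause of these shifts was not tested. With each replicate left out, the log2 differences ranged from 1.44 to 1.61 for AGO2 to AGO1, 1.55 to 1.66 for AGO2 to AGO3, 1.85 to 2.01 for AGO2 to AGO4, 1.61 to 1.69 for DROSHA to DGCR8, -1.76 to -1.64 for DICER1 to TARBP2, -2.51 to -2.42 for DICER1 to DROSHA and 0.83 to 0.86 for XPO5 to DICER1. The share of AGO2 ranged from 54.0% to 56.6%, the Argonaute sum over the TNRC6 sum from 0.816 to 0.843, and the wider genes at 1 TPM numbered 46 to 47. The counts of members at 1 TPM, at 10 TPM and with a range above 1 stayed at 9, 6 and 0 in these sets. Scaling without mitochondrially encoded genes raised the mean of each of the 9 genes by a factor of 1.25 and the median of all genes whose mean reached 1 TPM by 0.31 on the log2(TPM + 1) scale. Of the other values with all libraries kept, 34 moved, 3 of them shares by length class with no spread of their own and the rest by at least 1 SD, and 10 did not. With a replicate left out, 1 moved and 86 did not. The percentile of AGO3 was 22.8 by TPM and 9.14 by coverage. Read counts were not available, so a gene listed at 0 is not shown to be without RNA.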
